A study of Mus musculus with 6 samples.

Results

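The genes described are 33 transcripts of mitosis and of the G2 to M transition of the cell cycle, taken by name from a list. That list was chosen with earlier results of these data known. All 33 were found among the 16871 genes listed in the libraries, and all passed the filter on low counts that left 11809 genes for testing. RNA had been sequenced from bone marrow-derived macrophages of C57BL/6 mice aged 8 weeks, cells grown from marrow for 7 days and then treated with oxidised low-density lipoprotein (oxLDL). The control group (LKO, 3 libraries) carried a single knockout. The second group (DKO, 3 libraries) carried the same knockout together with a knockout of aldehyde dehydrogenase 2 (ALDH2), the mitochondrial enzyme that clears acetaldehyde and lipid aldehydes. The first knockout and the oxLDL treatment were therefore shared by both groups, and the libraries compared differed by ALDH2. The labels give no oxLDL dose or duration, no untreated cells and no statement that the libraries of a group came from separate animals. P-values therefore measure the spread between these libraries, which may be technical.

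Cells that divide switch these genes on late in the cycle and remove most of their products when mitosis ends. Cyclin-dependent kinase 1, joined to A- and B-type cyclins, drives entry into mitosis, and Polo and Aurora kinases carry the process forward. The spindle checkpoint holds the anaphase-promoting complex (APC/C) back until each chromosome is attached, and kinesins and their partners then build the midzone where the cell is cut. In resting cells the DREAM complex represses the same genes through promoter elements called CHR, and B-MYB, FOXM1 and the CCAAT-binding factor NF-Y activate them in cycling cells. Cultured marrow macrophages can still divide in response to their growth factor, while mature resting macrophages express these genes weakly.

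Libraries held between 10760625 and 10987584 estimated reads (expected counts) and the 33 genes took only a small part of them, with between 20 and 996 reads for a gene in a library. Aldh2, the targeted gene, averaged 241 ± 6.83 FPKM over the LKO libraries and 7.13 ± 0.181 over the DKO libraries, where FPKM scales fragments to transcript length and library size. Here and throughout, ± after an FPKM value is the SD over 3 libraries, and ± after a log2 fold change is its standard error. Macrophage markers were abundant in each library, with Adgre1 between 1718 and 2048 FPKM and Csf1r between 348 and 529.

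Promoter windows of these genes are shown because the module is known for shared promoter elements and because its members moved together. RefSeq windows of 300 bases, from 250 before to 50 after an annotated transcription start (build GRCm38.p6, not the build of the files), were matched by symbol for 28 of the 33 genes, in 30 windows. Each was searched on both strands for the CHR motif (TTTGAA, read TTCAAA on the other strand, or TTCGAA) and for the NF-Y motif (CCAAT, read ATTGG on the other strand). A match of one motif can share 1 base with a match of the other. The following stretches are the 200 bases before the start, 5′ to 3′ on the strand of the gene, with both motifs in capitals. All 5 lie on the minus strand: Top2a at chr11:99024190-99024389, Mki67 at chr7:135716380-135716579, Ncapd2 at chr6:125191587-125191786, Cdk1 at chr10:69352913-69353112 and Cdc20 at chr4:118437344-118437543. Top2a, Mki67 and Ncapd2 were lower in DKO, and Cdk1 and Cdc20 did not pass the test.
Top2a: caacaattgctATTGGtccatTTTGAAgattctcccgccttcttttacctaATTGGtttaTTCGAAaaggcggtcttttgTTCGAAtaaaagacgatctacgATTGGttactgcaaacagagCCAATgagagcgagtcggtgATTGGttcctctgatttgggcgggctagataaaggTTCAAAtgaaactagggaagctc
Mki67: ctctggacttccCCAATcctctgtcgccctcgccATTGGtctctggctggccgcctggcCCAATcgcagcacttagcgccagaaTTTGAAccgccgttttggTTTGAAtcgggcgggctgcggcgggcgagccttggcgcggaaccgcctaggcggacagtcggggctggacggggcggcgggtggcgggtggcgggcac
Ncapd2: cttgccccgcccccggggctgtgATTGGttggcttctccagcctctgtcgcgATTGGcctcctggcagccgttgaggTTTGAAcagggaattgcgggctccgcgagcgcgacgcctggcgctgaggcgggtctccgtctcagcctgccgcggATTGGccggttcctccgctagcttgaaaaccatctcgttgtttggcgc
Cdk1: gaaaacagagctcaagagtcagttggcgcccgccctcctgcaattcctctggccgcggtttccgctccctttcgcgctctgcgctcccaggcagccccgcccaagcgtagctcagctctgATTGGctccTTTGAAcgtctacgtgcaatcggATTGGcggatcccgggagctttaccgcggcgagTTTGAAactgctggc
Cdc20: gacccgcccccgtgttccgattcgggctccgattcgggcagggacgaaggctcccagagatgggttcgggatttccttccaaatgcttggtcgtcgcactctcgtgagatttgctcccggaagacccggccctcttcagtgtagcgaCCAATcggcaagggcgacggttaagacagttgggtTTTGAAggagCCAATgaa

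A CHR motif was found in 26 of the 30 windows (86.7%), against 19.2% of all 32851 promoter windows of the same length. An NF-Y motif was found in 27 of 30 (90%), against 37.4%, and both in 25 of 30 (83.3%), against 7.52%. As the module is known for these elements, the excess describes the list and not a difference between DKO and LKO. Both motifs were present in 7 of 10 windows of genes lower in DKO and in 18 of 20 windows of genes that did not pass. Ect2 and Prc1 each have another window, and counted by gene these were 7 of 10 and 16 of 18. Cdk1 carried both in the stretch shown and did not pass the test, whereas the window of Nusap1, which fell, held neither. A match of letters is a description and not a shown binding site.

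**Figure D1:**
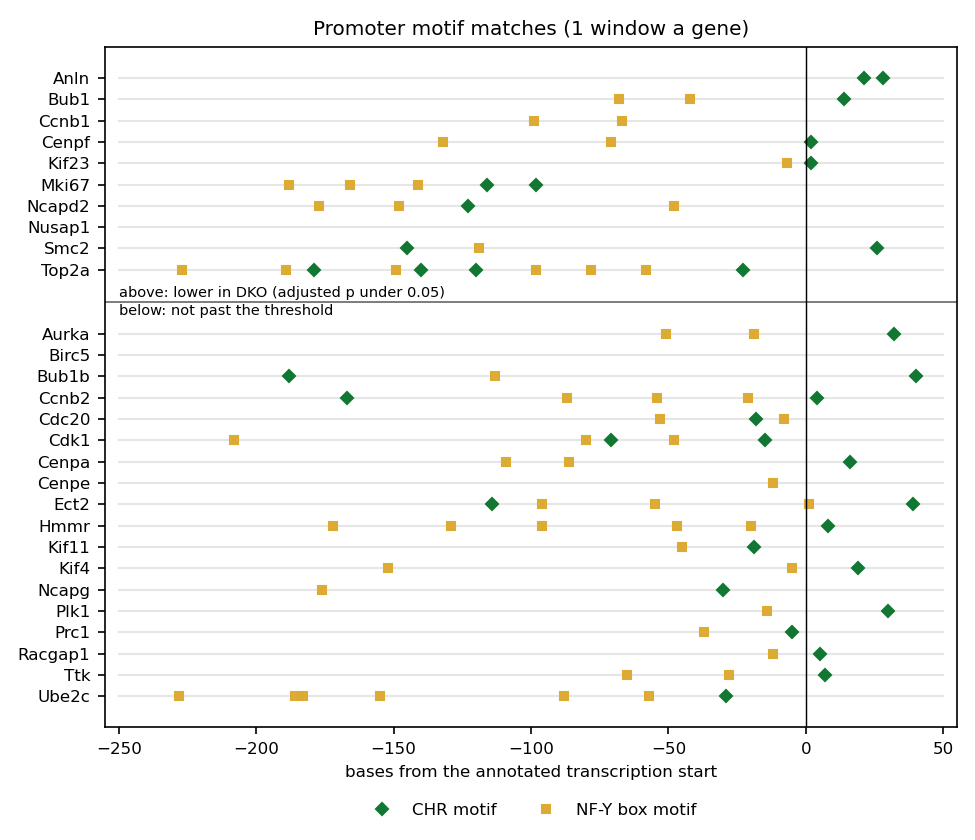
Positions of CHR motif matches (green diamonds) and NF-Y motif matches (yellow squares) in bases from the annotated transcription start, for the 28 genes with a RefSeq window (1 window a gene; Ect2 and Prc1 each have another). Genes above the line were lower in DKO, genes below it did not pass the test, and both motifs occur above and below the line.

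Mitotic transcripts were slightly less abundant in macrophages without ALDH2. The FPKM of the 33 genes summed to 165.2, 165.5 and 164.5 in LKO replicates 1 to 3 and to 140.6, 132.3 and 136.2 in the DKO replicates, so that the DKO mean was 82.6% of the LKO mean. The groups did not overlap in this sum. Of the 33 genes, 31 had a log2 fold change below 0, against 49.9% of all genes tested, and the median log2 fold change was −0.30 (19.0% lower) against 0.00 over all genes. In 22 of 33 genes every DKO library lay below every LKO library, against 16.0% of all genes tested. Because the list was chosen with earlier results of these data known, its shares here and below are descriptions and not independent support. Fewer dividing cells and less of these RNAs in each dividing cell cannot be told apart in bulk RNA.

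By edgeR's quasi-likelihood test, 11 of the 33 genes were lower in DKO at an adjusted p under 0.05, against 6.88% of all genes tested that were lower. They were Top2a, Mki67, Smc2, Smc4, Ncapd2, Bub1, Ccnb1, Cenpf, Nusap1, Kif23 and Anln. At an unadjusted p under 0.05 edgeR had 20 of 33 lower, against 12.7% of all genes. None was higher at either threshold in edgeR (background 7.42% higher at the adjusted one), and no gene of the list was called higher by DESeq2 (background 4.91%) or by limma on log2(FPKM + 1) (background 5.24%). Over all genes, 14.3% were called in either direction by edgeR. The number called depended on the test and on single libraries. It was 5 in DESeq2 (background 4.40%), 7 in limma on log2(FPKM + 1) (background 5.32%) and 2 in limma without a filter (background 2.26%). In edgeR it was 7 without DKO replicate 2 and 5 without DKO replicate 3 (backgrounds 5.21% and 4.60%). It was 8 to 11 when LKO replicate 1, 2 or 3 or DKO replicate 1 was left out (backgrounds 6.10%, 5.54%, 5.64% and 5.33%). It was 11, 10 and 11 in edgeR with DESeq2 size factors, without a count filter and with a replicate block (backgrounds 6.99%, 4.41% and 6.29%). In limma with pseudocounts of 0.1 and 5 and after quantile normalization it was 5, 7 and 3 (backgrounds 5.25%, 5.32% and 4.98%), and at an adjusted p under 0.01 in edgeR it was 5 (background 3.83%). Top2a and Mki67 were called in all 15 alternatives. In all, 16 of the 33 genes were called in at least 1 fit: Birc5, Aurkb, Ccna2, Kif11 and Racgap1 passed only in an alternative.

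**Figure D2:**
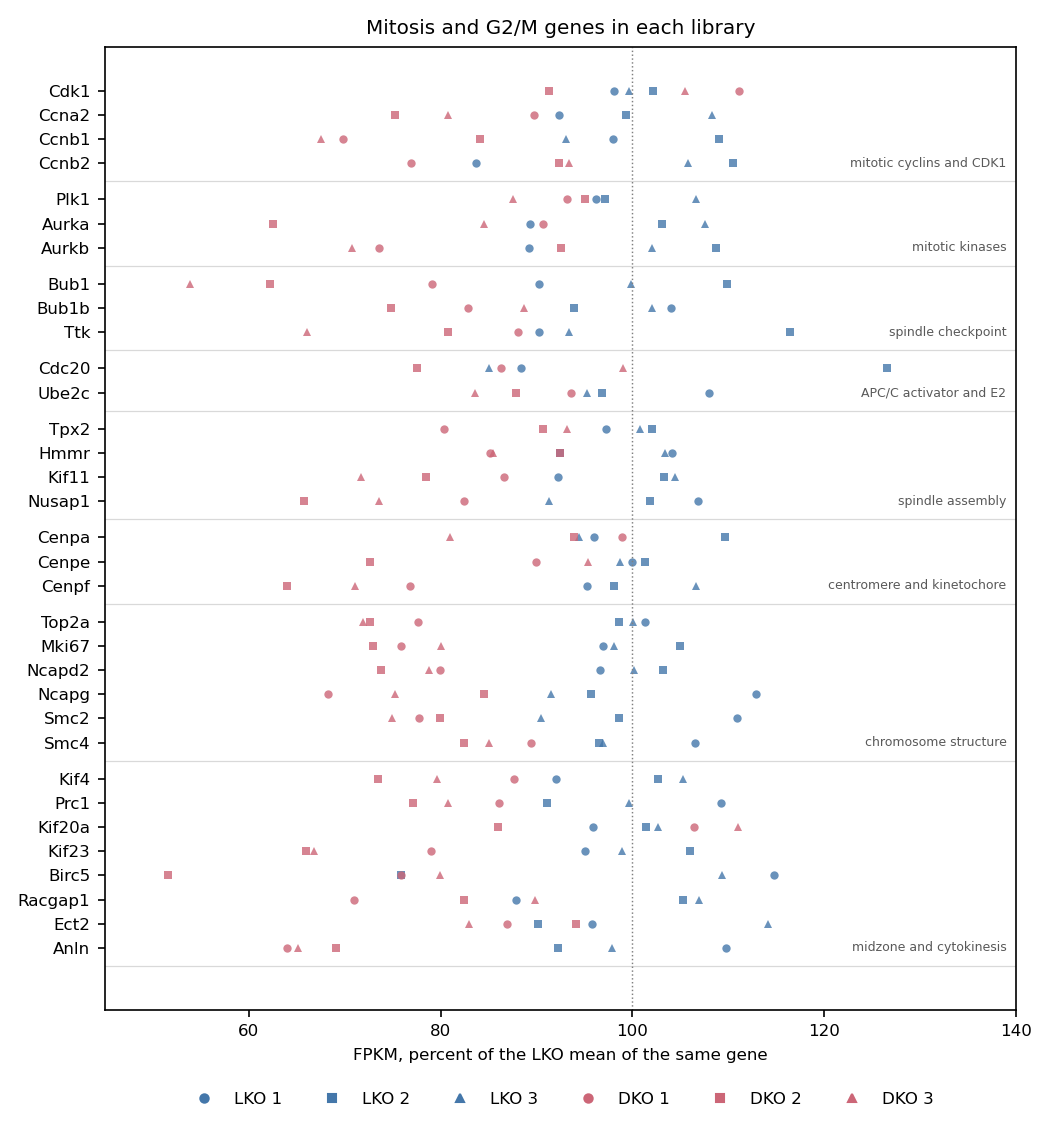
FPKM of each of the 33 genes in each library as a percentage of that gene's LKO mean (blue, LKO; red, DKO; the marker shape gives the replicate number, which does not pair libraries), grouped by role. Red symbols lie left of all blue symbols in 22 genes, and for Cdk1 and Kif20a they fall on both sides of the blue ones.

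Genes of chromosome structure held the most calls, 5 of 6, and those called also had the most reads of the 33 genes. Their median log2 fold change was −0.367. It was −0.374 for the spindle checkpoint genes (1 of 3 called) and −0.322 for the mitotic kinase genes (0 of 3), so the calls do not single out this role by size of fall. Top2a encodes the topoisomerase that untangles sister chromatids. It stood at 10, 9.73 and 9.87 FPKM in LKO and at 7.66, 7.17 and 7.09 in DKO. The groups were well apart, and the log2 fold change was −0.42 ± 0.06 SE (edgeR adjusted p = 4.26e-05). Mki67, which encodes the proliferation antigen Ki-67 that coats mitotic chromosomes, was at 8.29, 8.98 and 8.39 FPKM in LKO and 6.49, 6.24 and 6.85 in DKO. Again no DKO library reached the lowest LKO library (log2 fold change −0.38 ± 0.06, edgeR adjusted p = 7.56e-05). With between 699 and 996 reads a library, Mki67 had the most reads of the 33 genes and the smallest standard error.

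Condensin, the ring-shaped complex that compacts mitotic chromosomes, was represented by 4 subunits. Smc2, its shared ATPase core subunit, was at 6.29, 5.59 and 5.13 FPKM in LKO and 4.41, 4.53 and 4.25 in DKO. Its LKO libraries spread more widely than its DKO libraries without overlap (log2 fold change −0.34 ± 0.08, edgeR adjusted p = 0.00438). Limma did not call Smc2 without a filter or after quantile normalization (adjusted p = 0.105 and 0.0592). Ncapd2, a regulatory subunit of condensin I, was at 5.03, 5.37 and 5.21 FPKM in LKO and 4.16, 3.84 and 4.10 in DKO. Each group was tight, and the log2 fold change was −0.35 ± 0.08 SE (edgeR adjusted p = 0.00398). Without a filter limma did not call Ncapd2 (adjusted p = 0.0554). Smc4, the partner of Smc2, had the higher level of the pair, 16.6, 15.1 and 15.1 FPKM in LKO and 13.95, 12.9 and 13.3 in DKO. Its fall was the smallest among the genes called (log2 fold change −0.21 ± 0.06, edgeR adjusted p = 0.0209). Leaving out LKO replicate 1, DKO replicate 2 or DKO replicate 3 raised its edgeR adjusted p to 0.0835, 0.107 and 0.0645, and ended the call. DESeq2 gave Smc4 an adjusted p of 0.0749, and limma values from 0.0509 to 0.0940. Ncapg, another condensin I subunit, had 2.43, 2.06 and 1.97 FPKM in LKO and 1.47, 1.82 and 1.62 in DKO and did not pass (edgeR adjusted p = 0.0868), although its libraries did not overlap.

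Among the cyclins and their kinase, cyclin B1 fell and Cdk1 itself had a log2 fold change above 0. Ccnb1, the main mitotic cyclin, was at 4.18, 4.65 and 3.97 FPKM in LKO and 2.98, 3.59 and 2.88 in DKO. DKO replicate 2 came closest to the control range (log2 fold change −0.43 ± 0.14, edgeR adjusted p = 0.0377). DESeq2 gave Ccnb1 an adjusted p of 0.187. In edgeR the call of Ccnb1 ended when LKO replicate 1 or 2 was left out (adjusted p of 0.0562 and 0.141) and when DKO replicate 1 or 3 was (0.134 and 0.148). Cdk1 was at 5.06, 5.27 and 5.14 FPKM in LKO and 5.73, 4.71 and 5.44 in DKO. Its DKO libraries lay on both sides of the LKO libraries (log2 fold change 0.05, 95% interval −0.17 to 0.26, edgeR adjusted p = 0.834). Ccna2, cyclin A2, which acts in S phase and at mitotic entry, was at 6.25 ± 0.501 and 5.12 ± 0.459 FPKM in LKO and DKO, and Ccnb2 at 5.57 ± 0.796 and 4.87 ± 0.515. Neither passed (edgeR adjusted p = 0.0774 and 0.482), although Ccna2 did so when LKO replicate 1 was left out (0.0463).

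With all libraries, none of the 3 mitotic kinase genes passed in edgeR, DESeq2 or limma, and 2 of them were lower at an unadjusted edgeR p under 0.05. Aurka, the centrosomal Aurora kinase, was at 5.25 ± 0.500 FPKM in LKO against 4.16 ± 0.779 (edgeR adjusted p = 0.162). Aurkb, the Aurora kinase of the chromosomal passenger complex, was at 5.75 ± 0.570 and 4.54 ± 0.680 (edgeR adjusted p = 0.109), and it passed when DKO replicate 2 was left out (edgeR adjusted p = 0.0440). Plk1, the Polo kinase, differed less, with 3.35 ± 0.194 and 3.08 ± 0.131 FPKM. Its 95% interval ran from −0.39 to 0.17 on the log2 scale (edgeR adjusted p = 0.684), which leaves room for a fall as large as the median of the list.

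In the spindle checkpoint, Bub1 had the largest fall of all 33 genes. This kinase recruits checkpoint proteins to unattached kinetochores. Bub1 was at 1.61, 1.96 and 1.78 FPKM in LKO and 1.41, 1.11 and 0.96 in DKO. All DKO libraries were below the control range, with DKO replicate 1 the nearest (log2 fold change −0.61 ± 0.16, edgeR adjusted p = 0.0122). At between 46 and 93 reads a library, Bub1 had an adjusted p of 0.0727 in DESeq2 and of 0.0673 to 0.109 in limma. Without LKO replicate 2, DKO replicate 2 or DKO replicate 3 its edgeR adjusted p was 0.0567, 0.0520 and 0.0803, which ended the call. Bub1b, whose product BubR1 blocks the APC/C, was at 4.997 ± 0.270 and 4.10 ± 0.346 FPKM (edgeR adjusted p = 0.0625). Ttk, the checkpoint kinase Mps1, was the gene with the fewest reads, between 20 and 35 a library. It stood at 0.953 ± 0.137 and 0.747 ± 0.107 FPKM, and its interval of −0.87 to 0.12 was the widest (edgeR adjusted p = 0.352).

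Downstream of the checkpoint, Cdc20 activates the APC/C and Ube2c is the ubiquitin-conjugating enzyme that works with it. Cdc20 was at 2.92, 4.18 and 2.81 FPKM in LKO and 2.85, 2.56 and 3.27 in DKO. LKO replicate 2 stood above the other 5 libraries, which overlapped, and without it the log2 fold change was 0.03 in place of −0.18 (edgeR adjusted p = 0.959 and 0.590). Ube2c had the highest level per length of the 33 genes, 19.1 ± 1.32 FPKM in LKO and 16.8 ± 0.959 in DKO. Its libraries did not overlap, but Ube2c did not pass (log2 fold change −0.17, edgeR adjusted p = 0.288).

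All 4 spindle assembly genes had a log2 fold change below 0, and 1 of them passed the test. Nusap1, which bundles spindle microtubules near chromosomes, was at 3.25, 3.10 and 2.78 FPKM in LKO and 2.51, 2.00 and 2.24 in DKO. The groups were separated by a narrow gap (log2 fold change −0.42 ± 0.14, edgeR adjusted p = 0.0464). Nusap1 kept its call in only 3 of 15 alternatives, with an adjusted p of 0.230 in DESeq2 and up to 0.125 in limma. On leaving out LKO replicate 1 or 2 its edgeR adjusted p was 0.125 and 0.106, and on leaving out DKO replicate 2 or 3 it was 0.186 and 0.110. Kif11, the kinesin that pushes spindle poles apart, was at 2.69 ± 0.182 and 2.12 ± 0.200 FPKM without overlap (edgeR adjusted p = 0.0673, and 0.0484 when LKO replicate 1 was left out). Tpx2, which activates Aurora A on the spindle, was at 3.97 ± 0.0985 and 3.497 ± 0.270 FPKM, and Hmmr, a spindle-binding partner of it, at 4.12 ± 0.269 and 3.61 ± 0.170. Neither passed (edgeR adjusted p = 0.279 and 0.275).

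At the centromere, Cenpf was the gene that passed the test. Cenpf encodes a very large kinetochore protein and had the lowest level per length of the 33 genes. It was at 0.67, 0.69 and 0.75 FPKM in LKO and 0.54, 0.45 and 0.50 in DKO. The groups did not overlap (log2 fold change −0.50 ± 0.14, edgeR adjusted p = 0.0208). DESeq2 gave Cenpf an adjusted p of 0.153. The edgeR call also ended on leaving out LKO replicate 3, DKO replicate 2 or DKO replicate 3, with adjusted p-values of 0.0744, 0.0993 and 0.0625. Cenpe, a kinetochore motor, was at 1.5 ± 0.02 and 1.29 ± 0.178 FPKM (edgeR adjusted p = 0.313). Cenpa, the histone variant that marks centromeres, was at 8.60 ± 0.719 and 7.85 ± 0.795, with overlapping libraries (edgeR adjusted p = 0.682).

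Genes of the spindle midzone and of cytokinesis included 2 that passed the test as lower. Anln, the actin-binding scaffold of the contractile ring, was at 1.94, 1.63 and 1.73 FPKM in LKO and 1.13, 1.22 and 1.15 in DKO. Its DKO libraries lay close together and far below the control libraries (log2 fold change −0.59 ± 0.13, edgeR adjusted p = 0.00394). Limma did not call Anln with a pseudocount of 0.1, without a filter or after quantile normalization (adjusted p = 0.0545, 0.0522 and 0.0568). Kif23, the kinesin of the centralspindlin complex, was at 2.25, 2.51 and 2.34 FPKM in LKO and 1.87, 1.56 and 1.58 in DKO. No DKO library reached the LKO range (log2 fold change −0.49 ± 0.14, edgeR adjusted p = 0.0228). For Kif23 the adjusted p was 0.156 in DESeq2. With LKO replicate 2, DKO replicate 2 or DKO replicate 3 left out, edgeR no longer called it (adjusted p of 0.0807, 0.0972 and 0.0881). Racgap1, the other centralspindlin subunit, was at 4.87 ± 0.515 and 3.95 ± 0.464 FPKM with overlapping libraries (edgeR adjusted p = 0.119, and 0.0457 when LKO replicate 1 was left out).

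Kif20a, the kinesin that carries the passenger complex to the midzone, was the other gene with a log2 fold change above 0. It was at 4.37, 4.62 and 4.68 FPKM in LKO and 4.85, 3.92 and 5.06 in DKO. DKO replicate 2 lay below and the other DKO libraries above the controls (log2 fold change 0.03, 95% interval −0.19 to 0.25, edgeR adjusted p = 0.902). Birc5, the passenger protein survivin, had the widest spread within groups, 7.63 ± 1.60 FPKM in LKO and 5.27 ± 1.17 in DKO. Its values overlapped, and it did not pass (log2 fold change −0.43, edgeR adjusted p = 0.0909). Birc5 did pass with the replicate number as a block and when LKO replicate 2 was left out (edgeR adjusted p = 0.0460 and 0.0209). Prc1, which crosslinks midzone microtubules, was at 4.14 ± 0.375 and 3.36 ± 0.186 FPKM (edgeR adjusted p = 0.141). Kif4, its kinesin partner, was at 1.13 ± 0.0794 and 0.907 ± 0.0802 (edgeR adjusted p = 0.249), and Ect2, the exchange factor that activates RhoA for furrowing, at 1.253 ± 0.157 and 1.10 ± 0.0709 (edgeR adjusted p = 0.580).

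For most of the 22 genes that did not pass, a fall as large as the list median was not excluded. For 20 of them the 95% interval held the list median of −0.30, and for 9 the interval lay wholly below 0. That median is taken over all 33 genes, these 22 among them, so it does not compare them with the genes that passed. Cdk1 and Kif20a were the 2 genes whose intervals lay above the list median. Standard errors ran from 0.06 for Mki67 to 0.24 for Ttk on the log2 scale, so a fall of the median size was easier to detect with many reads. The genes with the most reads were all called: Mki67, Smc4, Top2a, Smc2 and Ncapd2, with LKO mean counts of 949, 700, 564, 341 and 258. Among the rest, read number did not separate the genes called from the others. Those called had LKO mean counts of at most 107 (Ccnb1), while genes with up to 200 (Bub1b) were not called. Over all 33 genes, the median of the LKO mean count was 107 for the genes called and 131 for those not called. Reads of 9 of the 33 genes were fractional in at least 1 library, meaning that they had been divided among transcripts or genes; of the genes called, Cenpf was the only such gene. In the annotation, 8 of the 33 genes overlap another protein-coding gene, Nusap1 and Anln among those called, and since the strand setting is not given in the sources used here their reads cannot be told apart.

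**Figure D3:**
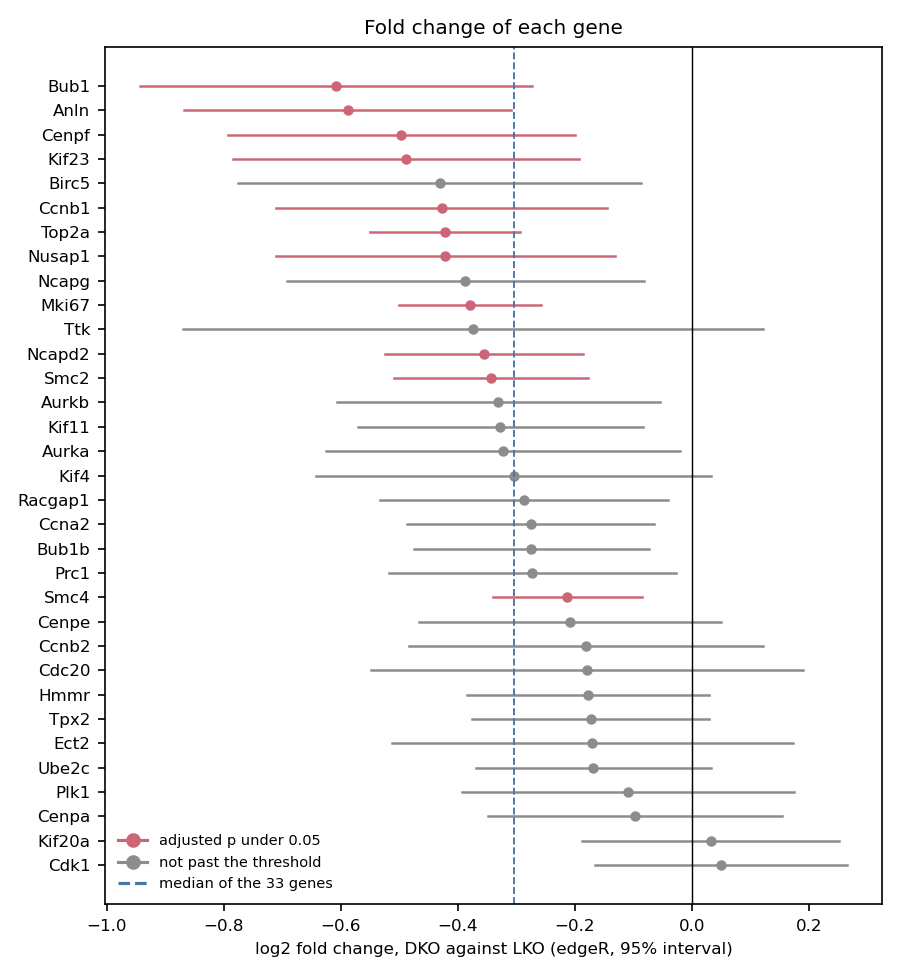
Log2 fold change of each of the 33 genes, DKO against LKO, with its 95% interval from the edgeR fit (red, adjusted p under 0.05; grey, not past the threshold). The dashed line is the median of −0.30; 31 points lie left of 0, and the intervals of Cdk1 and Kif20a lie right of the dashed line.

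Other genes of the division cycle were read from 8 lists with 181 tested members. Of these, 26 were lower and 3 higher in DKO by edgeR, where 6.88% of all genes were lower and 7.42% higher. The DNA replication list alone held 16 of the 26 lower genes, and no other list held more than 4. Kinetochore and centromere genes had 4 of 34 lower (median log2 fold change −0.20). These were Kntc1 (1.54 ± 0.203 to 0.963 ± 0.234 FPKM), a subunit of the complex that brings dynein to kinetochores, Spag5 (1.69 ± 0.0751 to 1.06 ± 0.183), Cenpt and Zwilch. Limma did not call Kntc1 (adjusted p from 0.0901 to 0.132). Spag5 had an adjusted p of 0.0727 in DESeq2, and of 0.0586 in edgeR when DKO replicate 1 was left out. Cenpt (6.71 ± 0.840 to 5.05 ± 0.220 FPKM) kept its edgeR call, of all libraries left out in turn, only for LKO replicate 2, with adjusted p-values up to 0.167 for the others. Zwilch (2.38 ± 0.208 to 1.65 ± 0.378 FPKM) lost its call when LKO replicate 1 or 3, or DKO replicate 1 or 2, was left out, with edgeR adjusted p-values up to 0.199. DESeq2 called neither (adjusted p = 0.173 for Cenpt and 0.232 for Zwilch).

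Other mitotic kinesins and spindle genes had a median of −0.29, close to that of the 33 genes, with Pbk and Kif15 lower and Numa1 higher among 26 tested. These shares were close to or below those over all genes (6.88% lower and 7.42% higher). Pbk, a mitotic kinase gene, went from 2.77 ± 0.190 to 1.64 ± 0.436 FPKM, with an adjusted p of 0.112 in DESeq2. Leaving out LKO replicate 2 or DKO replicate 1 brought its edgeR adjusted p to 0.0576 and 0.102. Kif15 (2.23 ± 0.110 to 1.66 ± 0.276 FPKM) and Numa1 (29.7 ± 1.24 to 32.9 ± 1.69 FPKM) each lost their call on leaving out any of 4 libraries, and DESeq2 called neither (adjusted p = 0.198 and 0.0524). For Kif15 these were LKO replicates 2 and 3 and DKO replicates 1 and 2 (edgeR adjusted p up to 0.250). For Numa1 they were LKO replicates 1 and 2 and DKO replicates 2 and 3 (edgeR adjusted p up to 0.223).

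Other condensin and cohesin genes, APC/C genes and genes of mitotic entry had medians of −0.05, −0.02 and −0.10, nearer to 0. Of 15 other condensin and cohesin genes, Smc1a of cohesin was lower (29.2 ± 1.49 to 25.9 ± 1.18 FPKM). Ncapg2, a condensin II subunit, was higher, at 4.20, 4.97 and 4.81 FPKM in LKO and 6.21, 5.87 and 6.24 in DKO. The lower and the higher share of this list were each close to that over all genes. Ncapg2 thus moved against the condensin subunits Smc2, Smc4 and Ncapd2 described above (log2 fold change 0.40 ± 0.07, edgeR adjusted p = 0.000411). Ncapg2 lost its call only in limma without a filter (adjusted p = 0.0652). The condensin subunits Ncaph, Ncapd3 and Ncaph2 did not pass, with log2 fold changes of −0.05, −0.008 and −0.007 (edgeR adjusted p = 0.827, 0.975 and 0.959). Smc1a lost its call on leaving out any library but LKO replicate 3, with edgeR adjusted p-values up to 0.206, and in DESeq2 (0.109). Of 20 APC/C genes only Ube2s, the enzyme that extends ubiquitin chains, was lower, no larger a share than over all genes, and went from 97.2 ± 5.07 to 80.5 ± 8.81 FPKM. Its edgeR adjusted p was 0.0600 and 0.0834 with LKO replicate 3 or DKO replicate 3 left out, and limma did not call Ube2s (adjusted p from 0.0517 to 0.131). In the mitotic entry switch, which holds the CDC25 phosphatases and WEE1-type kinases, none of 11 genes passed in edgeR, DESeq2 or limma, and 1 was lower at an unadjusted edgeR p under 0.05.

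Of 15 genes of the G2/M transcription machinery, Foxm1 was the one that passed the test as lower, a share close to the 6.88% of all genes that were lower. This activator was at 2.04, 2.31 and 2.52 FPKM in LKO and 1.85, 1.36 and 1.61 in DKO. The groups did not overlap (log2 fold change −0.50 ± 0.14, edgeR adjusted p = 0.0195). DESeq2 and limma did not call Foxm1 (adjusted p = 0.0981 and from 0.0747 to 0.137), and nor did edgeR on leaving out LKO replicate 3 or DKO replicate 2 (0.0886 and 0.110). The rest of the list, which includes the DREAM subunits and NF-Y, had no gene past the threshold, and the median of the whole list was −0.04.

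DNA replication and S-phase genes had the most calls of the 8 lists, 16 of 43 lower in edgeR, with a median of −0.26. Uhrf1, which maintains DNA methylation at replication forks, went from 5.92 ± 0.549 to 3.70 ± 0.318 FPKM, a log2 fold change of −0.66 ± 0.10 (edgeR adjusted p = 6.47e-05). Mcm5 and Mcm3, of the replicative helicase, went from 9.14 ± 0.503 to 6.48 ± 0.503 and from 17.3 ± 0.754 to 13.1 ± 0.907 FPKM. Rrm2, the ribonucleotide reductase subunit, went from 6.25 ± 0.441 to 4.08 ± 0.410. Calls of these 4 genes held in all 15 alternatives.

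Among 17 tested G1 cyclin and inhibitor genes, Cdkn1a rose and Myc fell. Neither share was larger than over all genes (7.42% higher and 6.88% lower). Cdkn1a encodes p21, the inhibitor of cyclin-dependent kinases. It was at 65.9, 68.8 and 75.6 FPKM in LKO and 94.4, 102.9 and 88.96 in DKO. Every DKO library exceeded every LKO library (log2 fold change 0.45 ± 0.06, edgeR adjusted p = 7.3e-06). Myc, a transcription factor that promotes entry into the cycle, was at 13.7, 12.6 and 13.2 FPKM in LKO and 9.05, 9.74 and 8.86 in DKO. Again the groups were apart (log2 fold change −0.50 ± 0.07, edgeR adjusted p = 5.18e-05). Both calls held in all 15 alternatives. The other cyclin and inhibitor genes tested did not pass, and the median of the list was −0.07.

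**Figure D4:**
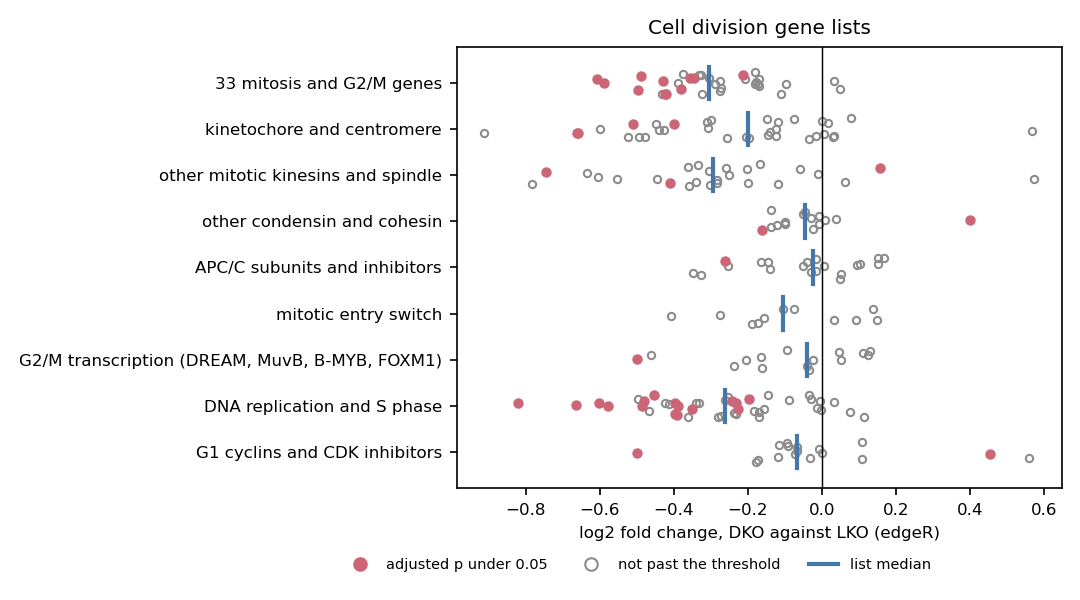
Log2 fold change, DKO against LKO, of the 33 genes and of the members of 8 further cell division lists (filled red, adjusted p under 0.05 in edgeR; open grey, not past the threshold; blue bars, list medians). Medians run from −0.30 for the 33 genes and −0.29 for other kinesins and spindle genes to −0.02 for APC/C genes.

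Markers of other cell types moved in the same libraries, and their counts stand beside 6.88% of all genes lower and 7.42% higher in edgeR. Progenitor cells of the marrow divide rapidly, and of 12 progenitor markers 7 could be tested, of which Sox4, Myb and Elane were lower in edgeR. The summed level of all 12 was 14.4 to 15.6 FPKM in LKO and 9.91 to 11.2 in DKO. The defining genes Kit and Cd34 were at 0.28 FPKM or less in every library, and Mpo between 1.99 and 3.82. Sox4 was not called with LKO replicate 2 left out (edgeR adjusted p of 0.0604). Myb was not called with LKO replicate 2, DKO replicate 1 or DKO replicate 3 left out (edgeR adjusted p up to 0.123). Elane kept its call, of all libraries left out in turn, for DKO replicate 3 alone (edgeR adjusted p up to 0.180 for the others). DESeq2 called none of these 3 genes (adjusted p from 0.0734 to 0.219).

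Neutrophil markers were lower in 8 of 12 tested (summed 656 to 716 FPKM in LKO, 444 to 488 in DKO). The largest terms of that sum were S100a9 (274 ± 13.7 to 172 ± 13.6 FPKM), S100a8 and Ngp. Of the defining neutrophil genes, Cxcr2 went from 3.63 ± 0.121 to 3.12 ± 0.160 FPKM without overlap. Ly6g, with 0.93 FPKM or less in every library, overlapped between the groups. Mean Csf3r and Cebpe did not fall (40.0 ± 1.98 to 41.3 ± 2.25 and 0.577 ± 0.107 to 0.647 ± 0.219 FPKM). B-lineage markers were lower in 5 of 6 (summed 114 to 129 and 89.4 to 99.0 FPKM). Stromal markers were higher in 9 of 12 (51.3 to 59.0 and 82.5 to 110 FPKM). Macrophage markers were higher in 10 of 15 and lower in 1 (summed 15904 to 16783 and 17921 to 19619 FPKM), and monocyte markers higher in 5 of 9 (169 to 189 and 205 to 220.5). The defining macrophage genes moved in opposite directions. Adgre1 went from 1938 ± 95.8 to 1755 ± 31.8 FPKM, with every DKO library below every LKO library, and Csf1r from 365 ± 21.4 to 484 ± 39.0. Mast cell and basophil markers summed to 1.13 to 1.35 FPKM in LKO and 0.24 to 0.70 in DKO. The 1 gene of that list that could be tested did not pass in edgeR, DESeq2 or limma, nor at an unadjusted edgeR p under 0.05. Mcpt8 was at 0.22, 0.11 and 0 FPKM in LKO and at 0 in all DKO libraries. Dendritic cell markers, 1 of 3 lower, summed to 2.45 to 4.19 and 1.75 to 2.87 FPKM, and T and NK cell markers, 1 of 3 lower, to 9.65 to 10.9 and 8.41 to 10.3. The lower T and NK gene was Cd4 (7.61 ± 0.195 to 6.35 ± 0.473 FPKM), which made up most of that sum. The defining genes Cd3e and Ncr1 were at 0.19 and 0.06 FPKM or less in every library. Mean Cd3d was higher in DKO (0.90 ± 0.235 to 1.43 ± 0.276 FPKM). Erythroid markers, 1 of 2 higher (Tfrc, 19.1 ± 0.833 to 21.5 ± 0.814 FPKM), summed to 20.8 to 22.0 and 23.3 to 24.5 FPKM. Most of that sum was Tfrc, and Klf1 was at 0.06 FPKM or less in every library. The part of these cell types in the lower mitotic transcripts was not tested.

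**Figure D5:**
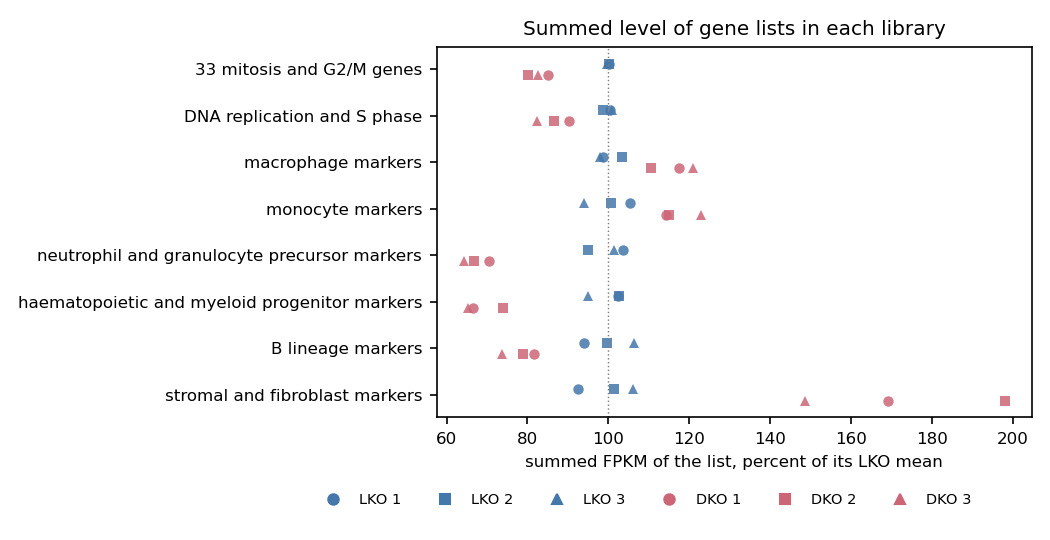
Summed FPKM of the 33 genes, of the replication list and of cell type marker lists in each library, as a percentage of the LKO mean of that list (blue, LKO; red, DKO; the marker shape gives the replicate number). The 33 genes lie at 80.1% to 85.2% in DKO, progenitor markers at 65.4% to 73.9%, neutrophil markers at 64.2% to 70.6% and stromal markers at 149% to 198%.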

How the data were processed

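The deposited files give, per the file headers, an expected count for each gene (a read number estimated by the authors) and an FPKM value, which the authors scaled to transcript length and library size. The submitters' processing notes name Bowtie 0.12.2 and mm8. Neither the counting tool nor the strandedness of counting is given in the sources used here. Files list genes above a minimum FPKM, and unlisted genes were set to 0. NCBI gene numbers were matched to RefSeq symbols (GRCm38.p6), and 16832 of 16871 had one. The members and lists were chosen with earlier results of these data known.

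Expected counts were rounded and tested with edgeR 4.0.16 in R 4.3.3 (filterByExpr, TMM, quasi-likelihood, no block), calling adjusted p-values under 0.05 (Benjamini-Hochberg, 11809 genes). The biological coefficient of variation was 0.0413. Standard errors came from the fold change and F statistic. Counts of libraries within a group differed beyond sampling noise (chi-square 1.68 to 3.71 for each degree of freedom), so no libraries were merged. Alternatives were DESeq2 1.42.0, its size factors, no count filter, a replicate block, limma 3.58.1 on log2(FPKM + 1), with pseudocounts of 0.1 and 5, without a filter or after quantile normalization, a threshold of 0.01, and leaving out each library. Limma used genes with at least 1 FPKM in 3 libraries, which left out Cenpf and Ttk, and log2(FPKM + pseudocount) understates the change of low genes. Named were all members, and up to 4 genes of smallest p of each list. The scripts were tested on simulated data. The knockout shared by both groups and 1 marker gene are not reported here.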

Additional observations from a re-analysis of the deposited data

How the results depend on the processing

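The median and the summed level of the 33 genes stayed lower in DKO in every alternative run for them, while the number of genes past the threshold did not. The median log2 fold change of the 33 genes, −0.30, was −0.24 in limma on log2(FPKM + 1), −0.14 with a pseudocount of 5, −0.23 without a filter and −0.23 after quantile normalization, and −0.33 to −0.24 on leaving out each library. The 11 genes called became 5 in DESeq2, 7 in limma on log2(FPKM + 1), 5 and 7 with pseudocounts of 0.1 and 5, 2 without a filter, 3 after quantile normalization, 5 at an adjusted p of 0.01, and 5 to 11 on leaving out each library. Over all genes, 1689 calls became 1119 in limma with a pseudocount of 0.1, 807 without a filter, 1108 after quantile normalization, 1005 at an adjusted p of 0.01 and 1175 to 1481 on leaving out each library. The cause of these changes was not tested. Leaving out a library also leaves fewer samples. The summed level in DKO stayed between 82.5% and 83.3% of LKO after rescaling to TPM, without Top2a, Mki67 and Smc4, or without the genes with fractional counts, a choice added after seeing the data.

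Signs turned only in genes that never passed: on leaving out each library, Cdk1 ranged from −0.012 (without DKO replicate 1) to 0.13, Cdc20 from −0.29 to 0.027 (without LKO replicate 2) and Kif20a from −0.042 (without DKO replicate 3) to 0.14, with −0.0012 without LKO replicate 1 and −0.0084 without DKO replicate 1. The replicate numbers do not pair the libraries: deviations of same-numbered libraries from their group means correlated at −0.05 to −0.0041. With the replicate block, 1553 genes and 11 of the 33 passed, with Birc5 gained (adjusted p = 0.0460) and Nusap1 lost (0.0577). At 20 to 35 reads a library, depth limits what can be said of Ttk.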
